A study of Equus caballus with 40 samples.

Results

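The genes described here copy DNA and prepare the cell for S phase. They were chosen as a list of 41 gene symbols, each represented by the probe set that the platform annotation assigns to the symbol, and by the one with the highest mean where a gene has several. Of the 41 genes 40 were measured, with 1 probe set each, out of 30559 probe sets on the array, and CHAF1A had no named probe set. The list was sorted into 8 roles: origin licensing, helicase activation, polymerases, the sliding clamp and lagging strand, nucleotide supply, chromatin, control of the G1/S step, and fork protection and repair.

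The arrays measured total RNA from horse cartilage cells (chondrocytes) kept in 3D pellet culture, where packed cells lay down matrix. Stimulated pellets received IL-1β (interleukin-1β), an inflammatory cytokine made as recombinant horse protein and given at 5 ng/ml, over a 48 h pre-stimulation, and control pellets did not. The stimulated pellets were then labelled as IL-1β alone or as IL-1β with AES, AES24h or ACS, which the series title ties to autologous equine serum and autologous conditioned serum. Harvest followed at 2 h and 48 h, so a pellet of the 2 h harvest had already passed through the pre-stimulation. There were 4 arrays in each of the 10 groups, 40 in all. The labels do not explain AES24h, give no serum dose and leave unstated if the 4 replicates come from different horses or cultures. Every p-value therefore measures only the spread among these samples, possibly a technical one, and 4 arrays a group limit the precision.

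Before a chromosome is copied, the origin recognition complex, CDC6 and CDT1 load the MCM helicase onto DNA during G1, a step called licensing. At the start of S phase CDC45 and the GINS complex join MCM to form the active helicase, DNA polymerase alpha with primase lays down primers, and the clamp PCNA, loaded by the RFC complex, holds the copying polymerases on the template. Many of these genes are transcribed under E2F factors as cells enter the cycle, and their RNA is low in resting cells, the usual state of chondrocytes in adult cartilage.

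Values are log2 expression values, and a difference of 1 is a doubling of signal. Array medians over all probe sets lay between 4.35 and 4.59, and arrays of a group correlated at 0.962 to 0.984 across probe sets. All 16 chondrocyte markers of the list were measured, and 13 to 15 of them had a mean above every array median in each group, with COMP, a cartilage matrix protein, at 12.03 to 12.69. Of 13 measured leukocyte markers 9 to 11 had a mean below every array median, and the pan-leukocyte marker PTPRC lay at 2.38 to 2.57 in all groups. Markers of other cells were not all low. The leukocyte markers CD68 and CSF3R lay at 4.95 to 5.91 and 4.67 to 5.01. Of 6 measured synovial fibroblast markers 1 to 3 had a mean above every array median in each group, with PDGFRA at 8.04 to 8.86. Of 9 endothelial and mural markers 1 did, PDGFRB, at 6.43 to 7.42. A group mean below every array median was not shown to be above background. A difference that involves one is a difference of deposited values. Where a log2 value is printed for such a difference, it is not to be read as a measured fold. In bulk RNA fewer cycling cells and less RNA per cell cannot be told apart.

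The control arrays at 2 h were uneven before any test. Control replicate 1 at 2 h had the highest value of its group for 39 of the 40 genes, and control replicate 2 had the lowest for 28. The median over the 40 genes was 5.84, 5.09, 5.52 and 5.09 in control replicates 1 to 4 at 2 h. In the 16 stimulated arrays of that harvest it lay between 4.47 and 4.75, so every control array was above every stimulated one. At 48 h the medians were 4.90 to 5.06 in control, 4.77 to 5.05 with IL-1β, 4.61 to 5.24 with AES, 4.88 to 5.35 with AES24h and 4.51 to 5.23 with ACS, and the groups overlapped. The 2 h controls had the highest group mean for 38 of the 40 genes. That group spreads widely and 1 array leads it. The totals of the 40 genes called against it at 2 h are therefore given with and without replicate 1. Counts by role, by overlap, at an unadjusted p and for other gene lists include replicate 1.

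**Figure D1:**
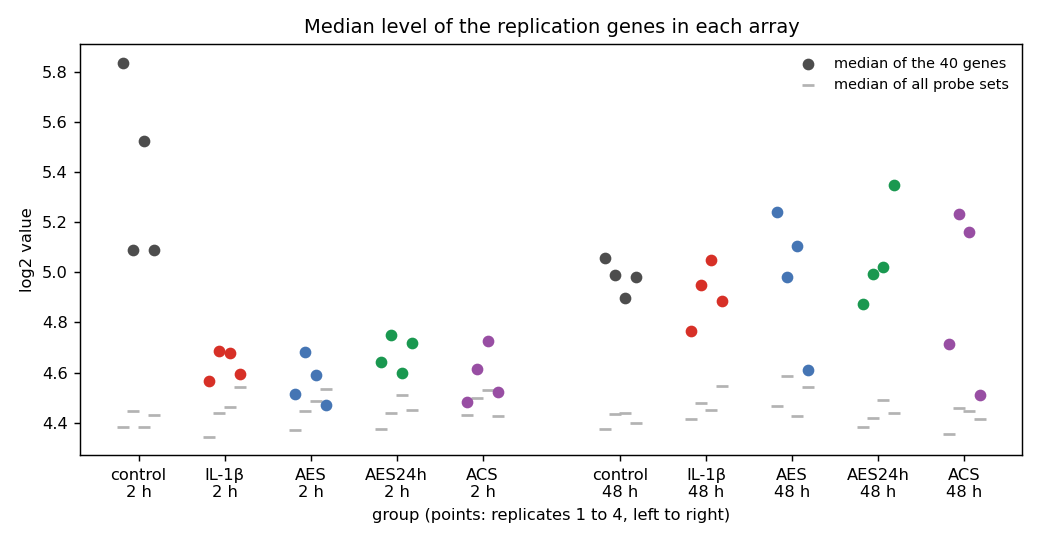
Median log2 value of the 40 replication genes in each array (coloured points, y axis; replicates 1 to 4 from left to right in each of the 10 groups on the x axis) with the median of all probe sets in the same array (grey dashes). The 4 control arrays at 2 h lie between 5.09 and 5.84, above the 16 stimulated arrays of that harvest at 4.47 to 4.75, while the groups overlap at 48 h.

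The first comparison asked how the cytokine alone moved these genes at the 2 h harvest. All 40 genes were lower with IL-1β than in control, 27 of them past an adjusted p of 0.05 in limma, and none was called higher. In this comparison 4.52% of all probe sets were called in either direction and 2.96% were called lower. The median log2 fold change was −0.87 over the 40 genes and 0.04 over all probe sets, and single genes ran from −2.37 to −0.10. For 26 genes every IL-1β array lay below every control array, which held for 5.41% of all probe sets. Without control replicate 1 limma called 19 genes, all of them among the 27, and 39 of 40 differences were negative, with a median of −0.69. The genes that no longer passed were ORC1, MCM7, GINS3, POLA1, RRM1, CHAF1B, CCNE1 and CCNE2.

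**Figure D2:**
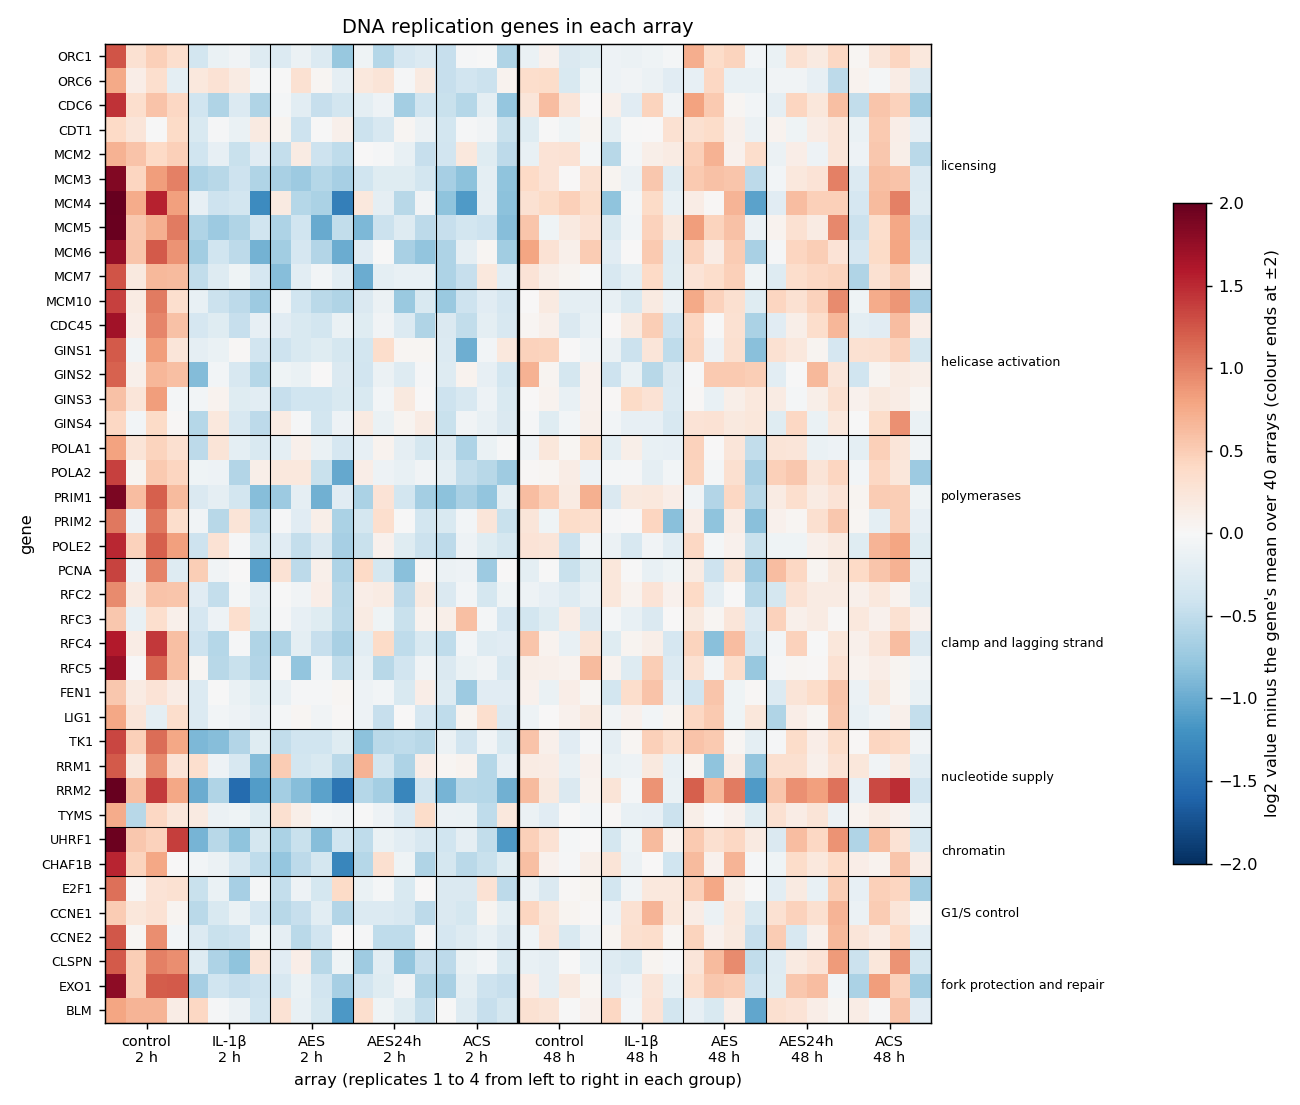
Log2 value of each of the 40 genes (rows, grouped by role) in each of the 40 arrays (columns, replicates 1 to 4 within each group), shown as the difference from that gene's mean over all arrays, with colours ending at ±2. Control arrays at 2 h are red in most rows, replicate 1 most of all, and the stimulated arrays of the same harvest are mostly blue.

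Among the licensing genes 8 of 10 were called lower. MCM6, a subunit of the MCM helicase, had values of 8.39, 7.19, 7.86 and 7.52 in the control arrays and 5.93, 6.23, 6.10 and 5.68 with IL-1β. No IL-1β array came near the lowest control, and MCM6 fell by 1.75 on the log2 scale (SE 0.26, limma adjusted p = 2.22e-05). MCM3, another subunit, measured 7.40, 5.98, 6.40 and 6.57 in control and 4.94, 5.00, 5.14 and 4.95 with IL-1β, a change of −1.58 (adjusted p = 5.2e-05). MCM5 measured 7.08, 5.64, 5.82 and 6.15 in control and 4.51, 4.38, 4.50 and 4.70 with IL-1β, a change of −1.65 (adjusted p = 5.42e-05). In both genes the IL-1β arrays sat close together and the control arrays were spread out, with replicate 1 on top. MCM4 fell by 1.83, MCM7 by 0.98 and MCM2 by 0.84 on the log2 scale, so all 6 subunits of the helicase ring were called. Without control replicate 1 MCM7 did not pass (adjusted p = 0.0725). The loader CDC6 and the origin recognition subunit ORC1 were called lower too, with IL-1β means below every array median. CDT1, which works with CDC6 to load MCM, was at −0.33 (adjusted p = 0.339), and ORC6 was at −0.10 with a 95% interval from −0.46 to 0.26.

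The genes that switch the helicase on followed, with 4 of 6 called lower. GINS2, a GINS subunit, measured 5.58, 4.51, 5.08 and 5.00 in control and 3.55, 4.36, 4.09 and 3.84 with IL-1β. The groups did not overlap, though control replicate 2 came within a small step of the highest IL-1β array, and the change was −1.08 (SE 0.21, limma adjusted p = 0.00078). MCM10, which helps to activate the helicase, CDC45 and the GINS subunit GINS3 were called too, at −1.18, −1.14 and −0.52. GINS1 and GINS4 were at −0.72 and −0.49 and did not pass. GINS2, MCM10, CDC45 and GINS4 had IL-1β means below every array median, and CDC45 and GINS4 also in control.

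Of the polymerase genes 3 of 5 were called lower. PRIM1, the catalytic primase subunit, measured 7.58, 6.32, 6.89 and 6.34 in control and 5.41, 5.52, 5.34 and 4.85 with IL-1β, and fell by 1.5 on the log2 scale (SE 0.25, limma adjusted p = 8.39e-05). Its lowest control array was above its highest IL-1β array. POLE2, a subunit of the leading-strand polymerase epsilon, measured 4.73, 3.68, 4.43 and 4.05 in control and 2.82, 3.53, 3.20 and 2.87 with IL-1β (adjusted p = 0.00121). The POLE2 means of both groups were below every array median, so no fold is given. POLA1, the catalytic subunit of polymerase alpha, was at −0.64 and passed, while its partner POLA2 and the second primase subunit PRIM2 were at −0.76 and −0.81 and did not (adjusted p = 0.0812 and 0.0844).

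At the clamp and on the lagging strand 3 of 7 genes were called lower, all 3 of them subunits of the clamp loader. RFC5 measured 6.25, 4.53, 5.68 and 5.12 in control and 4.56, 3.97, 4.07 and 3.94 with IL-1β (SE 0.25, limma adjusted p = 0.00111). Here the groups overlapped by a narrow margin, since IL-1β replicate 1 was above control replicate 2, and the IL-1β mean was below every array median. RFC4 and RFC2 were called lower as well, RFC4 with an IL-1β mean below every array median. PCNA, the clamp itself, was at −0.66 with an interval from −1.29 to −0.02 (adjusted p = 0.329), and its control arrays had an SD of 0.80. The flap nuclease FEN1 and the ligase LIG1, which finish lagging-strand fragments, were at −0.45 and −0.44, and RFC3 was at −0.30. None of these 4 passed, and the RFC3 means of both groups were below every array median.

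Nucleotide supply held both the smallest p-value and the largest difference of the list, and 3 of its 4 genes were called lower. TK1, the thymidine kinase that feeds thymidine into DNA synthesis, measured 7.27, 6.41, 7.05 and 6.71 in control and 5.04, 5.08, 5.34 and 5.69 with IL-1β. Every control array was above every IL-1β array, and TK1 was 2.97-fold lower (log2 fold change −1.57, SE 0.19, limma adjusted p = 7.15e-07). RRM2, the regulated subunit of ribonucleotide reductase, measured 9.0, 7.12, 7.92 and 7.30 in control and 5.53, 5.93, 4.98 and 5.41 with IL-1β, 5.18-fold lower (log2 fold change −2.37, SE 0.41, adjusted p = 0.00014). Without control replicate 1 the values were −1.44 for TK1 and −1.98 for RRM2, and both passed. The partner subunit RRM1 was at −0.90 (adjusted p = 0.0417), and thymidylate synthase, TYMS, was at −0.27 with an interval from −0.63 to 0.09.

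Both measured chromatin genes were lower. UHRF1, which carries DNA methylation through replication, measured 7.55, 6.12, 6.05 and 6.96 in control and 4.65, 5.03, 4.78 and 5.23 with IL-1β. The groups were clearly apart, and the log2 fold change was −1.75 (SE 0.28, limma adjusted p = 4.42e-05). CHAF1B, a subunit of the histone chaperone CAF-1, was at −0.94 (adjusted p = 0.015), with an IL-1β mean below every array median. Without control replicate 1 CHAF1B did not pass (adjusted p = 0.155).

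Of the G1/S control genes 2 of 3 were called lower. CCNE1, cyclin E1, which with CDK2 drives cells into S phase, measured 5.36, 5.09, 5.14 and 4.91 in control and 4.32, 4.56, 4.73 and 4.53 with IL-1β. The groups did not overlap, and the change was the smallest of the 11 genes given array by array under the naming rule, at −0.59 (SE 0.16, limma adjusted p = 0.0195). Without control replicate 1 CCNE1 did not pass (adjusted p = 0.108), and the other 10 of these 11 genes did. CCNE2, cyclin E2, was also called lower, with both means below every array median. E2F1, a transcription factor for many replication genes, was at −0.74 and missed the threshold (adjusted p = 0.0759), although its groups did not overlap.

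Among fork protection and repair genes 2 of 3 were called lower. EXO1, an exonuclease of mismatch repair and end resection, measured 4.58, 3.28, 4.0 and 4.02 in control and 2.12, 2.40, 2.32 and 2.38 with IL-1β (limma adjusted p = 4.11e-05). All EXO1 group means were below every array median. CLSPN, claspin, which relays the replication checkpoint, was called lower with an IL-1β mean below every array median. The helicase BLM was at −0.61 (adjusted p = 0.189). The measured chondrocyte markers moved in this comparison as well, with 6 of 16 called lower and 0 called higher. Their summed log2 level was 131.9 to 137.2 in the control arrays and 117.5 to 122.6 with IL-1β, and their part in the result was not tested. Summed leukocyte markers lay at 45.7 to 45.9 in control and 46.4 to 49.8 with IL-1β, and 0 of the 13 were called. Of the 27 called genes 12 had an IL-1β mean below every array median. Of the others, MCM3, MCM4, MCM5, MCM6, PRIM1, TK1, RRM2 and UHRF1 were lower by at least 2-fold.

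**Figure D3:**
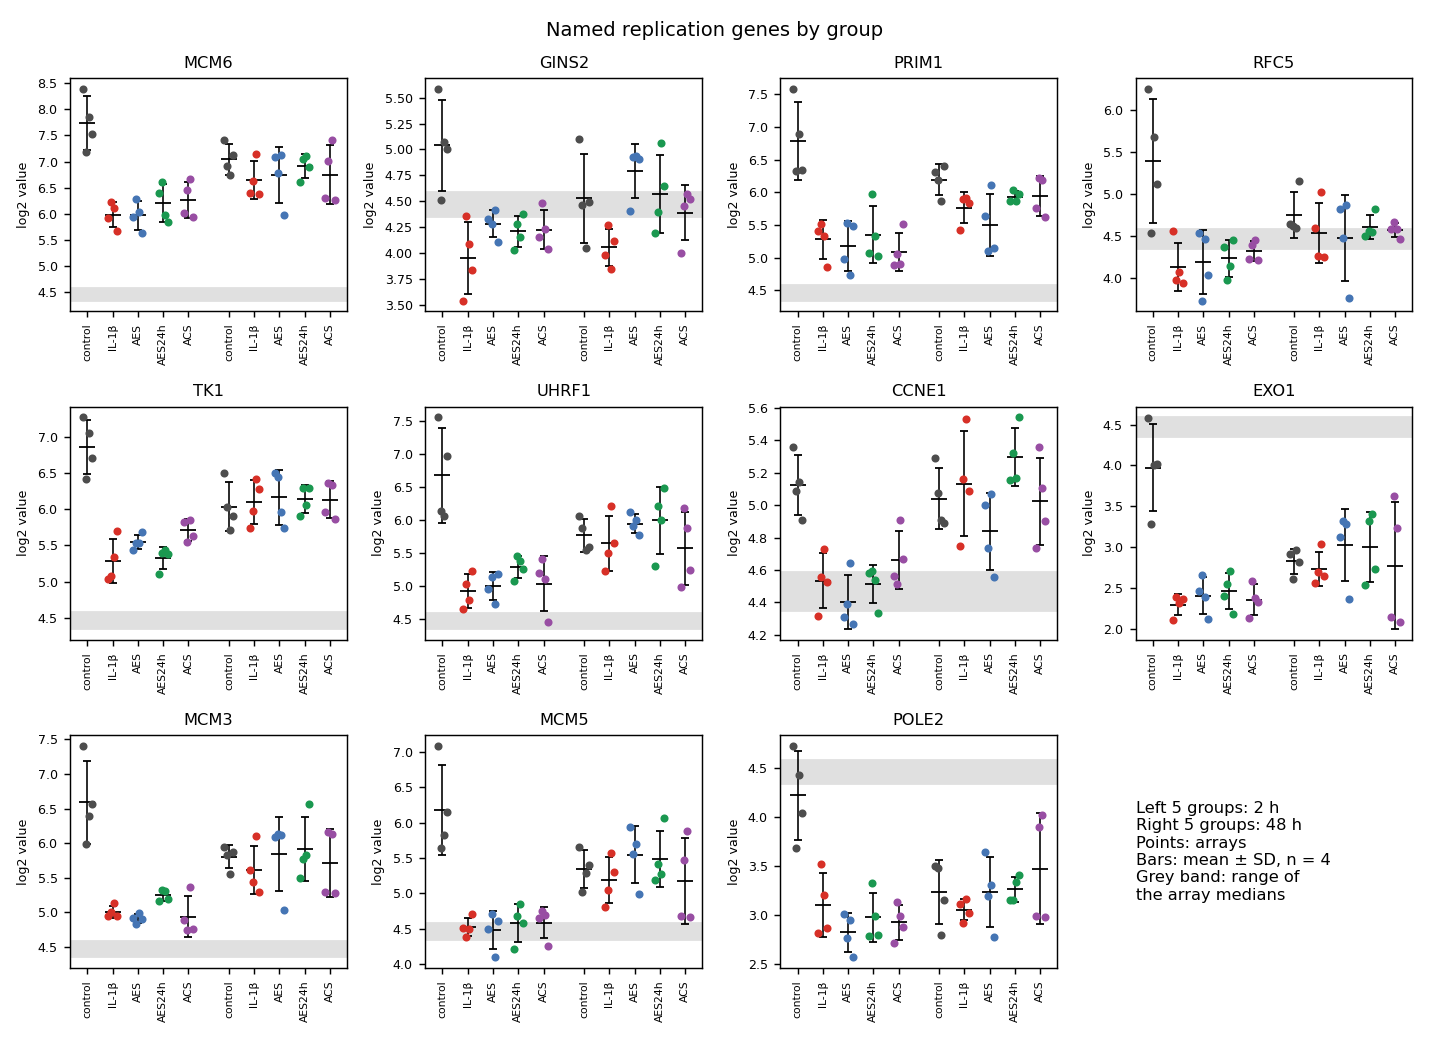
Log2 value of the 11 named genes (1 panel each, y axis) in every array of the 10 groups (x axis; the 5 groups on the left are the 2 h harvest, those on the right the 48 h harvest). Bars are the mean ± SD of 4 arrays, and the grey band is the range of the array medians, 4.35 to 4.59, and all POLE2 and EXO1 means lie under it.

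The pellets that had serum beside IL-1β were set against the same 2 h control arrays, so these comparisons are not independent of the one above. All 40 genes were again lower than in control in each of the 3. Limma called 30 of them lower with AES, 24 with AES24h and 29 with ACS. The shares of all probe sets called lower were 4.60% for AES, 4.05% for AES24h and 4.08% for ACS. Median log2 fold changes were −0.90, −0.81 and −0.85 over the 40 genes and 0.08, 0.06 and 0.07 over all probe sets. Without control replicate 1 the counts were 21 for AES, 14 for AES24h and 19 for ACS.

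TK1 had values of 5.44, 5.53, 5.54 and 5.68 with AES, 5.11, 5.40, 5.43 and 5.38 with AES24h and 5.82, 5.55, 5.85 and 5.62 with ACS at 2 h. These 12 arrays all lay below the lowest control array, and the log2 fold changes against control were −1.31, −1.53 and −1.15. RRM2 was at −2.33, −2.05 and −2.06 in the same order, and MCM6 at −1.77, −1.53 and −1.47, all called. CCNE1 was called lower with AES (−0.72) and AES24h (−0.61) and was at −0.46 with ACS (limma adjusted p = 0.074).

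Adding a serum to IL-1β gave no called difference from IL-1β alone at 2 h. Limma called 0 of 40 genes for AES, AES24h and ACS, where 0.0164%, 0.0229% and 0.0262% of all probe sets were called. At an unadjusted p under 0.05 there were 0, 0 and 2 genes, against 7.33%, 5.28% and 5.22% of all probe sets. The 2 genes, both with ACS, were TK1 at 0.42 (adjusted p = 0.917) and ORC6 at −0.46 (adjusted p = 0.883). Medians over the 40 genes were 0.02, 0.08 and 0.03 on the log2 scale. The 95% intervals of single genes reached from −0.97 to 1.15 over the 3 sera, so a doubling of some genes is inside them.

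At 48 h limma called none of the 40 genes between IL-1β and control. The count was 0, against 1.26% of all probe sets, and 1 gene, GINS2, had an unadjusted p under 0.05 (log2 fold change −0.47, adjusted p = 0.433), against 9.83% of all probe sets. The median was −0.11 over the 40 genes, with 27 negative, and 0.04 over all probe sets. TK1 measured 6.49, 6.04, 5.71 and 5.90 in control and 5.74, 5.98, 6.41 and 6.28 with IL-1β, which overlap, and the difference was 0.07 with an interval from −0.32 to 0.46. RRM2 was at 0.10 with a wider interval, from −0.73 to 0.92, and MCM6 at −0.41 with one from −0.94 to 0.13.

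**Figure D4:**
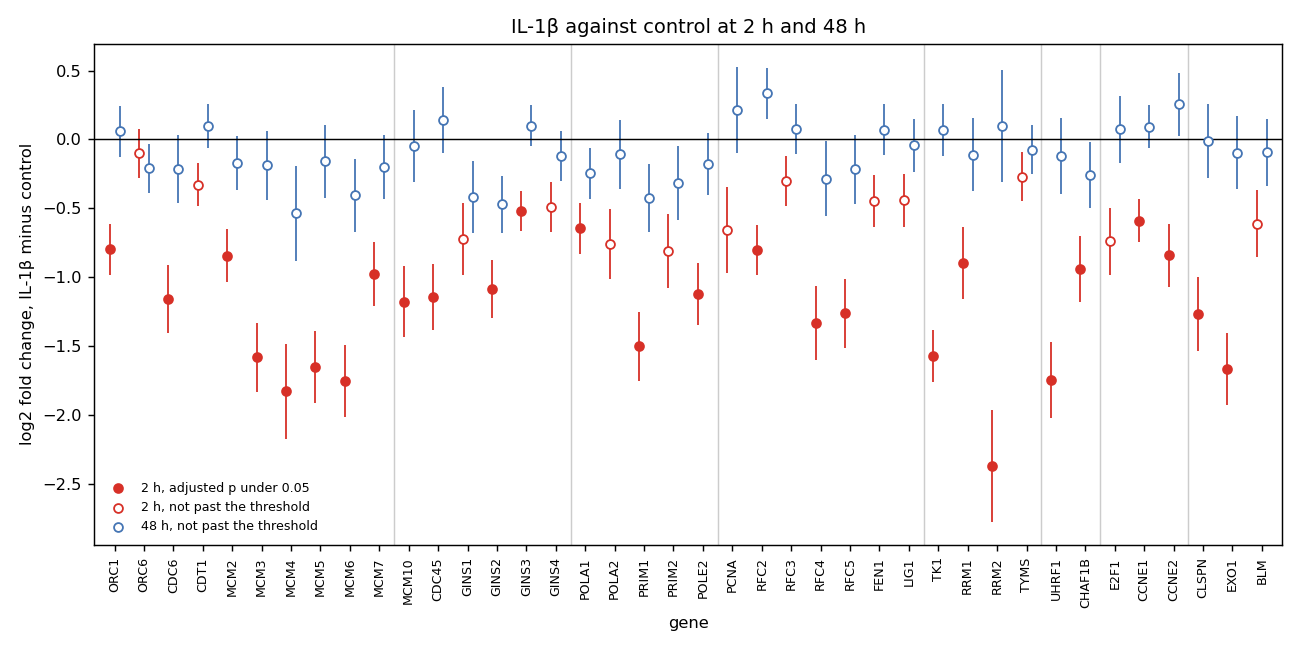
Log2 fold change of IL-1β against control (y axis) for each of the 40 genes (x axis, in the order of their roles) at 2 h (red) and 48 h (blue). Bars are ± 1 SE, and filled points passed an adjusted p of 0.05 in limma, 27 at 2 h and 0 at 48 h.

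The difference of the IL-1β effect between harvests was tested directly. It was positive for 39 of 40 genes, with a median of 0.83 against 0.01 over all probe sets. A call was made for 1 gene, TK1, which was also the only call among all probe sets (0.00327%). At an unadjusted p under 0.05 the difference was higher for 26 genes and lower for 0, against 2.93% of all probe sets higher. The next 5 genes by p-value were RFC2 and RRM2 (adjusted p = 0.19), then EXO1, UHRF1 and MCM5 (adjusted p = 0.194), with RRM2 at 2.47. TK1 did not pass when 1 of 9 arrays was left out: control replicates 1 and 3 and IL-1β replicates 1 and 2 at 2 h, control replicates 2, 3 and 4 and IL-1β replicates 3 and 4 at 48 h. Its adjusted p then reached 0.116, and without control replicate 2 at 2 h 6 genes were called. For the other 39 genes a change in the cytokine effect between harvests was therefore not established, and the TK1 call depended on which arrays were kept.

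How each treatment moved between the harvests shows where the groups met. In control pellets all 40 genes were lower at 48 h than at 2 h, with a median of −0.58, but limma called 0 (0.00327% of all probe sets were called). At an unadjusted p under 0.05, 29 genes were lower, against 2.76% of all probe sets, and for 11 genes the harvests did not overlap, against 2.32%. RRM2 was at −1.16 (adjusted p = 0.658), TK1 at −0.83 (adjusted p = 0.17), UHRF1 at −0.91 (adjusted p = 0.5) and CCNE1 at −0.08. Without control replicate 1 at 2 h the median was −0.36, and without replicate 2 limma called 3 genes, all lower.

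With IL-1β alone the values at 48 h were higher for 35 of 40 genes, with a median of 0.23, and limma again called 0 (0.00654% of all probe sets). At an unadjusted p under 0.05, 10 genes were higher, against 3.78% of all probe sets. RRM2 was at 1.31 (adjusted p = 0.458), TK1 at 0.81 (adjusted p = 0.155) and CCNE1 at 0.60 (adjusted p = 0.287). Each of these 3 genes had all its 48 h arrays above all its 2 h arrays. The share of the 40 genes or of all probe sets that did so is not given here, so no rise is inferred from it.

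The 3 sera with IL-1β were then averaged, a comparison of 12 arrays with 12. Limma called 21 of 40 genes higher at 48 h than at 2 h and 0 lower. Of all probe sets 9.41% were called and 4.57% were called higher. The median was 0.40 over the 40 genes and −0.01 over all probe sets. They included 9 of 10 licensing genes and 2 of 2 chromatin genes, and 0 of 7 clamp and lagging-strand genes, with PCNA at 0.37 (adjusted p = 0.233). Differences between roles were not tested. Of the 21 genes 20 were among the 27 called lower with IL-1β at 2 h, the exception being CDT1 at 0.28 (adjusted p = 0.0439). That is 20 of 21 in the one list and 20 of 27 in the other. The 2 comparisons share no array, but both use the same estimate of each gene's spread. Their calls are therefore not independent, and the overlap was not tested.

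RRM2 rose most, by 1.45 on the log2 scale (SE 0.23, limma adjusted p = 5.2e-05). Its 48 h values were 7.72, 7.17, 7.56 and 5.39 with AES, 7.08, 7.44, 7.35 and 7.61 with AES24h and 6.35, 7.84, 8.0 and 6.14 with ACS, against 5.06 to 6.14 in the 12 arrays at 2 h. AES replicate 4 and ACS replicate 4 lay inside the 2 h range, while the other 10 arrays were above it. CCNE1 rose by 0.53 (adjusted p = 0.000117), TK1 by 0.61 (adjusted p = 0.000212), MCM5 by 0.85 (adjusted p = 0.000208) and MCM3 by 0.79 (adjusted p = 0.000285). ORC1 and MCM10 were at 0.58 and 0.76, and CHAF1B and UHRF1 at 0.72 and 0.73, all called. The ORC1 means of all serum groups were below every array median. So were the MCM10 means of all sera at 2 h and the CHAF1B means with AES and ACS at 2 h. Of the other called genes, CDC6, POLE2, CCNE2, CLSPN and EXO1 also had serum means below every array median. TK1 at 48 h measured 6.50, 6.45, 5.96 and 5.73 with AES, 5.90, 6.29, 6.06 and 6.30 with AES24h and 5.96, 6.36, 6.34 and 5.86 with ACS. Each of its 4 AES and 4 AES24h arrays was above all 2 h arrays of the same serum, and so were its 4 ACS arrays, by a very small margin.

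The averaged result was not matched by calls within each serum. Taken singly, in comparisons added after the averaged result had been seen, limma called 4 genes with AES (CHAF1B, MCM5, ORC1 and MCM3), 3 with AES24h (CCNE1, TK1 and RRM2) and 0 with ACS, where 13 genes had an unadjusted p under 0.05, against 11.9% of all probe sets. The shares of all probe sets called higher were 0.569%, 0.556% and 0.422%. The 3 medians were 0.42, 0.42 and 0.41, but single genes spread more widely. CHAF1B was at 1.07 with AES, 0.46 with AES24h and 0.62 with ACS, and MCM2 at 0.71, 0.19 and 0.24. The differences between sera in this change were not tested. The 4 AES calls became 0 with array weights or when only the AES arrays were fitted. Leaving out any 1 AES array at 2 h other than replicate 2 gave 1, as did leaving out AES replicate 1 or 2 at 48 h, and replicate 3 at 48 h gave 2. The AES24h count was 1 without replicate 1 at 2 h or without replicate 2, 3 or 4 at 48 h, and 2 without any other array. Whether the rise was larger with serum than with IL-1β alone was also tested. Limma called 0 genes (0.0491% of all probe sets), with a median difference of 0.15 and 1 gene, ORC1, at an unadjusted p under 0.05 (0.46, adjusted p = 0.666; 7.08% of all probe sets). A rise particular to serum was therefore not established.

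**Figure D5:**
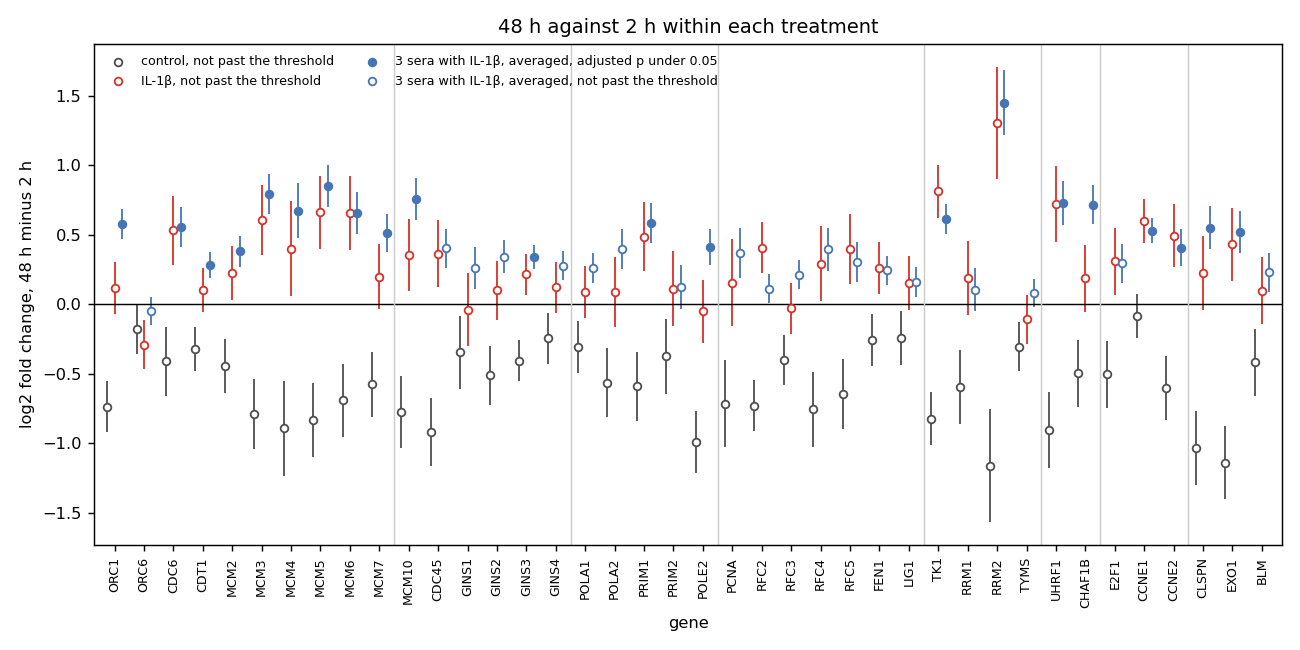
Log2 fold change of 48 h against 2 h (y axis) for each of the 40 genes (x axis, in the order of their roles) in control (grey), with IL-1β alone (red) and averaged over the 3 sera with IL-1β (blue). Bars are ± 1 SE, and filled points passed an adjusted p of 0.05 in limma, which 21 genes did in the averaged sera and 0 in the other groups, while every control value is below 0.

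The 48 h arrays with serum were uneven in the same way for many genes. AES replicate 4 was the lowest of its group for 30 of 40 genes and ACS replicate 4 for 28, while AES24h replicate 4 was the highest for 23. Leaving out AES replicate 4 gave 24 genes called in the averaged sera, leaving out ACS replicate 4 gave 23, and leaving out AES replicates 2 and 4 gave 23. Chondrocyte markers moved in the same comparison, with 11 of 16 called lower at 48 h in the averaged sera and 0 called higher. Their summed log2 level was 115.9 to 129.0 in the 12 serum arrays at 2 h and 107.1 to 119.2 at 48 h, and their part in the result was not tested. In IL-1β against control at 2 h, 0 of the leukocyte, red cell and platelet, endothelial and mural, or synovial fibroblast markers were called in limma (0, 1, 0 and 1 at an unadjusted p under 0.05). In the averaged sera 1 leukocyte marker was called higher and 1 lower at 48 h, and 1 endothelial or mural marker was called higher.

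At 48 h limma called 0 of the 40 genes for any serum against IL-1β alone. The shares of all probe sets called were 0.442% for AES, 0.226% for AES24h and 0.262% for ACS, and 4, 2 and 1 genes had an unadjusted p under 0.05, all higher with serum, against 10.6%, 6.85% and 7.60% of all probe sets. GINS2 differed most with AES, at 0.73 (interval 0.31 to 1.16, adjusted p = 0.108) and was at 0.52 with AES24h. Its arrays measured 4.4, 4.93, 4.93 and 4.90 with AES and 3.99, 4.27, 3.85 and 4.12 with IL-1β, groups that did not overlap. The IL-1β mean of GINS2 was below every array median. Medians over the 40 genes were 0.16, 0.26 and 0.10, and with AES24h 38 of 40 genes were positive. Without AES replicate 4 the AES median was 0.33, with 0 genes called.

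Against control at 48 h, 0 genes were called with AES, AES24h or ACS, where 7.76%, 3.54% and 3.85% of all probe sets were called. The genes with an unadjusted p under 0.05 were 1 higher and 3 lower with AES, 2 higher with AES24h and 1 higher with ACS, against 22.9%, 11.4% and 12.7% of all probe sets in either direction. With AES, ORC1 was at 0.52 (adjusted p = 0.0799) and PRIM1 at −0.69 (adjusted p = 0.0815). Both ORC1 means were below every array median. In this comparison 1 gene was called without AES replicate 3 or without AES replicate 4. The sera were also set against each other at 48 h, and limma called 0 of 40 genes and 0% of all probe sets in each of the 3 pairs. AES24h was higher than AES for 4 genes at an unadjusted p under 0.05, with CCNE1 at 0.46 (interval 0.14 to 0.78, adjusted p = 0.297), ACS was lower than AES for 2, and ACS and AES24h had 0, against 11.7%, 10.7% and 2.47% of all probe sets. Intervals of single genes reached from −1.11 to 1.23 over the 3 pairs, so these values do not show that the sera act alike.

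Other genes of the cycle give the setting. With IL-1β at 2 h 2.96% of all probe sets were called lower. Of 47 further replication genes measured, 16 were called lower and 0 higher in that comparison, with a median of −0.40. They included DTL, an adaptor of the ubiquitin ligase that clears CDT1 in S phase, and the cohesion genes ESCO2 and DSCC1, all 3 with IL-1β means below every array median. Of 27 measured G1/S control genes outside the list 4 were called lower and 1 higher. CCNA2, cyclin A2, was at −3.28 and the cyclin-dependent kinase inhibitor CDKN2C at −1.20. Of 39 measured mitosis genes 38 were called lower, with a median of −3.09 over the list. Among them were KIF23, NUF2 and TTK, whose IL-1β means were below every array median. Each of the 3 lists had 0 genes called for IL-1β against control at 48 h (3, 5 and 11 at an unadjusted p under 0.05 in limma). The mitosis genes still lay lower there, 38 of 39 of them, with a median of −0.77 against 0.04 over all probe sets. All 11 of their genes at an unadjusted p under 0.05 were lower. Medians of the other 2 lists were −0.08 and −0.07. Of all probe sets 1.26% were called at 48 h, and 9.83% had an unadjusted p under 0.05.

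In the averaged sera 14 of the 47 further replication genes were called higher at 48 h than at 2 h and 1 lower. Of 39 mitosis genes 35 were called higher, with a median of 1.28 over the list. Of all probe sets 4.57% were called higher. Of the G1/S control genes 8 were called higher, including CCNA2 by 1.52 and CDK2, the partner of cyclins E and A, by 0.70. Another 2 were called lower, among them MYC, a growth-promoting transcription factor, at −0.86 (limma adjusted p = 1.58e-06). Against control at 48 h, 1 of the 27 G1/S control genes was called higher and 2 lower with AES. With AES24h 2 were called higher and 0 lower, and with ACS 1 higher and 1 lower. Those higher were cyclin D1, CCND1, with AES (0.83) and AES24h (0.66), and the inhibitor CDKN1A with AES24h (1.33) and ACS (1.37). Those lower were CDKN2C with AES and ACS (−0.53 in each) and SKP2, a ubiquitin ligase subunit that targets CDK inhibitors, with AES (−0.71). Of the further replication genes POLD4, a polymerase delta subunit, was higher with AES (0.62) and ACS (0.59) and RPA3, of the single-strand binding complex, with AES24h (0.65). DBF4, the activator of the CDC7 kinase, and the MCM-binding protein MCMBP were lower with AES (−0.92 and −0.53). Of the mitosis genes ECT2 was called lower with AES, with a mean below every array median, and 0 others were called with any serum. Medians over the 39 mitosis genes were −0.73 with AES, −0.37 with AES24h and −0.63 with ACS, with 38, 33 and 36 genes negative. Over all probe sets the medians were 0.07, 0.02 and 0.02. In these comparisons 7.76%, 3.54% and 3.85% of all probe sets were called in either direction with AES, AES24h and ACS. The further replication genes and the mitosis genes did not exceed these shares.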

How the data were processed

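Total RNA of 40 chondrocyte pellet samples was measured on Affymetrix Equine Gene 1.0 ST arrays. The authors deposited 1 log2 value for each probe set and array. The submitters' processing notes name Affymetrix Expression Console, RMA and limma and give no versions. Because RMA equalises the arrays' distributions, a change shared by most transcripts would be understated. The table had 0 columns of no sample. Of 30559 probe sets 16789 had 1 gene symbol in the platform annotation and could be named.

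A linear model of 10 group means was fitted to all probe sets with limma 3.58.1 in R 4.3.3 (30 residual and 4.62 prior degrees of freedom, intensity trend, no replicate term). Benjamini-Hochberg adjustment of the two-sided p-values covered all probe sets, with calls at 0.05. There were 21 comparisons, and 4 more were added after the first results had been seen. The code was tested on simulated data. Array-by-array values are given for the member of each role with the largest moderated statistic for IL-1β at 2 h, for TK1, and for up to 6 members with the smallest p in a serum comparison or the difference between harvests. RRM2 was added after its values were seen. Up to 3 called genes are named from each further list. The members, lists and roles were chosen with earlier results of these data known.

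Titles number the replicates 1 to 4 in every group. Deviations of same-numbered arrays from their group means correlated at a median of 0.11, and those of arrays with other numbers at −0.04. In 1 of 22 comparisons of 2 groups every pair was over 0.1, so the main fit did not pair the samples by number. That rule cannot exclude a pairing, since 36 of 40 arrays correlated best with their own number. Counts from a fit with a replicate block are given below. Alternatives were a replicate block, fixed or random, the upper 60 percent of probe sets, 2 further scalings, no intensity trend, array weights, only the groups compared, and arrays or replicate numbers left out.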

Additional observations from a re-analysis of the deposited data

Results flagged for a closer look

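In 5 of 120 groups of 4 arrays examined over the named genes, 1 array lay far from the other 3, and chance alone gives about 1 such group in 20. With AES at 48 h, MCM3 was lowest in replicate 4 at 5.035, with the others at 6.08 to 6.14, and GINS2 was lowest in replicate 1 at 4.4038, with the others at 4.90 to 4.93. With IL-1β at 48 h, PRIM1 was lowest in replicate 1 at 5.4188, with the others at 5.84 to 5.92. In control at 48 h, RFC5 was highest in replicate 4 at 5.1542, with the others at 4.59 to 4.64. With AES24h at 2 h, TK1 was lowest in replicate 1 at 5.1079, with the others at 5.38 to 5.43. The IL-1β effect on TK1 differed between harvests by 1.6389 on the log2 scale, by a test of the difference itself. TK1 did not pass when certain single arrays, or all arrays of any replicate number, were left out, or when only the groups compared were fitted.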

How the results depend on the processing

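Of 57 called values of the named genes, recomputed 1293 times under the alternatives, 1181 stayed past the threshold in the same direction, 112 did not pass and 0 reversed. Of 555 alternative counts 499 were within 1.5 times the reported one and 56 were not. The share of all probe sets called under each alternative is not given here, so a moved count may be shared by the whole array. The causes were not tested, except that the fit to only the groups compared has fewer arrays behind its spread. That fit called 18 genes for AES and 12 for AES24h against control at 2 h, 0 for the difference of the IL-1β effect, and 0 with AES and 1 with AES24h between harvests. Array weights called 6 genes for the difference of the IL-1β effect, 6 between harvests in control and 0 with AES. The AES count between harvests was 7 with the upper 60 percent of probe sets and 2 with arrays centred on their medians. With the replicate block, fixed, limma called 30 genes for IL-1β at 2 h, 22 for the averaged sera between harvests and 1 for AES against control at 48 h, and 36 of 40 arrays correlated best with their own number. Averaging probe sets gave no other value, since every gene had 1.

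Leaving out 1 array gave 19 to 31 genes for IL-1β at 2 h, and leaving out 1 replicate number gave 16 to 25. The same pairs of ranges were 21 to 31 and 19 to 28 for AES, 14 to 25 and 13 to 24 for AES24h and 19 to 31 and 13 to 26 for ACS against control at 2 h. They were 0 to 6 and 0 to 0 for the difference of the IL-1β effect, 16 to 24 and 11 to 18 for the averaged sera between harvests, 1 to 5 and 0 to 2 for AES, 1 to 2 and 0 to 2 for AES24h, and 0 to 3 and 0 to 0 for control. For AES against control at 48 h they were 0 to 1 and 0 to 1, and for AES against IL-1β at 48 h 0 to 0 and 0 to 1. The lowest counts came without replicate number 1 (16 for IL-1β, 13 for AES24h and ACS at 2 h) or number 3 (19 for AES at 2 h, 11 for the averaged sera). Signal limits the sizes given: 14 of the 40 genes with IL-1β and 6 in control at 2 h had means not shown to be above background.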
